A study of Mus musculus and Homo sapiens with 40 samples.

Results

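The response of H3K27ac to LPS in p30-expressing HPC-7 cells was examined by comparing the peak list of untreated cells with that of LPS-treated cells. Peaks of both lists on chromosomes 1 to 19 and X were merged wherever they overlapped by 1 bp. This gave 167619 regions. All 4 H3K27ac lists of the series, merged in the same way as a separate set, make 183152. A region was kept when it held a peak of both lists, gained when it held only LPS peaks and lost when it held only untreated peaks. By this rule 90552 regions were kept, 38758 (23.1%) were gained and 38309 (22.9%) were lost.

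HPC-7 cells are immortalized progenitors of mouse blood, cultured with stem cell factor, with very little CEBPA of their own. Both groups were stably transduced with the short isoform p30 of the transcription factor CEBPA, fused to the ERT2 fragment of the estrogen receptor. The study used 4-hydroxytamoxifen to bring such fusions into the nucleus, a treatment that the sample labels do not name. Since each isoform has its own line, isoform and line cannot be told apart. One group was untreated and the other received LPS at 100 ng/mL for 2 h, with 3 libraries per group. The series also holds the same pair of groups for cells with the full-length p42 isoform, and lists of H3K4me1 and of CEBPA binding in untreated p30-expressing cells, the last with an antibody to CEBPA and with one to the receptor part of the fusion (anti-ER), which served here as other readouts.

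Acetylation of lysine 27 of histone H3 marks active promoters and enhancers, and rises at enhancers that a stimulus switches on. LPS, a component of the bacterial outer membrane, is bound by TLR4 with its partners CD14 and MD-2. The receptor signals through the adaptors MyD88 and TRIF to NF-kB, to MAP kinases that act on AP-1, and to interferon regulatory factors. Early targets include chemokines, cytokines and the inhibitors that end the NF-kB response, such as IkB proteins and A20.

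Each list was called by the authors on its 3 libraries pooled, so the spread between replicates cannot be seen and no p-value is given for any difference. The strength of a region is the highest fold enrichment over input of any of its peaks, as the authors' peak caller gave it. The change of a kept region is the log2 of the ratio of the LPS fold to the untreated fold, less the median of all kept regions (0.01). A region was called higher or lower when it changed by at least 1.5-fold on this scale, and "rose" and "fell" refer to that call. Intervals are 95% Wilson intervals over regions and cover counting error only. The number of reads behind the lists is not known from them.

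Below are stretches of the GRCm39 reference (plus strand) from regions that rose or were gained, with a match to the NF-kB consensus in capitals. They are shown as examples of the consensus in the regions described below. The matches lay between 128 and 384 bp from the summit, so that most are outside the 500 bp around it in which the consensus was counted further on, and overlapping matches are in 1 capital run.

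Ets2, region 22646 bp downstream of the start, chr16:95530133-95530233: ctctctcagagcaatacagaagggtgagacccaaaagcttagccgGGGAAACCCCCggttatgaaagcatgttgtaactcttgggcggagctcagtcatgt
Psmg1, region 92524 bp downstream, chr16:95699265-95699364: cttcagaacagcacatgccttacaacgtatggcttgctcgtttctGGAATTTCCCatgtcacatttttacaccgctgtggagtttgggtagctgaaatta
Cd47, region 104225 bp downstream, chr16:49790992-49791091: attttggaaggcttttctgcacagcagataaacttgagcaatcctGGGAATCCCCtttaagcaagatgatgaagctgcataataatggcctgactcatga
Lta, region 4820 bp upstream, chr17:35429331-35429430: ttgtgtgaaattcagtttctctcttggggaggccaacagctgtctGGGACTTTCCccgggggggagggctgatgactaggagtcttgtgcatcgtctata
Cxcl2, promoter, chr5:91051616-91051716: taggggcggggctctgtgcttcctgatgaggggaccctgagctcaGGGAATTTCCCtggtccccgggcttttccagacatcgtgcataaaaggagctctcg
Nfkb1, gained region in an intron, chr3:135376486-135376585: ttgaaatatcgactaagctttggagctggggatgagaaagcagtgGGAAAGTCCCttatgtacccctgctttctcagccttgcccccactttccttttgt
Tnfrsf9, gained region at a start site, chr4:151012404-151012432: agagcagctGGGGATTTCCCaggaggccc

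The next stretch was taken from the region with the largest rise. Capitals mark a match to the AP-1 consensus TGANTCA.

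Traf1, region at an inner start site, chr2:34848195-34848291: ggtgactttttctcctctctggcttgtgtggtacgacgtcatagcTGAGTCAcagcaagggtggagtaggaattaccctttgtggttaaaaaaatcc

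The untreated list held 139190 peaks over 121.57 Mb, with a median fold of 3.19. The LPS list held 142385 peaks over 120.53 Mb, with a median fold of 3.14. Peaks with a q-value under 1e-05 made up 56.4% of the untreated and 57.7% of the LPS list. The 8 progenitor genes checked, Kit, Cd34, Gata2, Tal1, Lmo2, Runx1, Meis1 and Myb, all had a promoter region in both lists, with an untreated fold between 23.8 (Meis1) and 39.6 (Cd34). Of 28 genes of unrelated tissues, 2 had a promoter region, Pax6 and Myog. Of 16 B and T cell markers 7 had a promoter region, 5 of them kept and 2 gained. Of 16 erythroid and megakaryocyte markers 8 had one, all kept. Among the members of these 2 lists without one were Pax5, Ebf1, Cd3e and the globin genes. The macrophage genes Csf1r and Cd68 did have one, with untreated folds of 33.6 and 61.7, while those of Adgre1 and Mrc1 were weaker at 9.48 and 5.64. None of these 4 macrophage promoters was called higher or lower. Over all kept promoters 11.9% were higher and 1.02% lower, so few calls would be seen in 4.

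Kept regions were the strong and wide ones. They had a median width of 825 bp and held 84.5% of all covered bases. Gained regions had a median width of 233 bp and lost regions of 260 bp. A kept region joins peaks of both lists, while each gained or lost region is a single peak. Merging therefore widens kept regions by construction. Gained regions stood at a median rank of 74.1% of the LPS list, where low percentages are the best q-values, and lost regions at 76.2% of the untreated list. Each list was split into 10 equal parts by q-value. In the best part of the untreated list every peak lay in a kept region, and in the best part of the LPS list 1 of 14238 peaks did not. In the weakest part, 5299 of 13919 untreated peaks (38.1%) and 5980 of 14239 LPS peaks did.

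**Figure D1:**
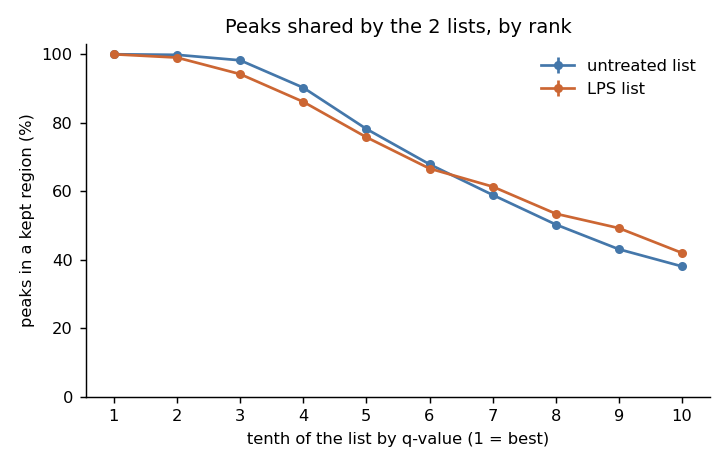
Share of peaks that lie in a kept region (y axis, percent) by rank of q-value in 10 equal parts of their list (x axis, 1 is the best), for the untreated and the LPS list, with 95% Wilson intervals that are smaller than the points. The curves start at 100% for the untreated and 99.993% for the LPS list and fall to under 50% in the weakest parts, with the LPS list lower from part 2 to part 6 and higher after it.

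Both classes lay mostly in the weaker ranks, down to the calling threshold. The count was therefore repeated with equal peak numbers, which gave 89574 kept, 36793 gained and 39293 lost regions, so the small excess of gained regions turned into an excess of lost ones. With the 50000 best peaks of each list, 8476 regions were gained and 8562 lost. A stricter count took only regions with a q-value under 1e-05 in one list and no peak at all in the other. It left 9891 strictly gained regions (25.5% of the gained) and 7393 strictly lost ones (19.3% of the lost).

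The gained and lost regions differed in where they lay. Strictly gained regions were at promoters (summit within 1000 bp of a protein-coding start site) in 6.29% of cases (5.83 to 6.78) and strictly lost regions in 2.92% (2.56 to 3.33). Intergenic sequence held 31.2% (30.3 to 32.1) of the strictly gained and 13.0% (12.3 to 13.8) of the strictly lost regions. Introns held 53.6% and 67.8%. A peak of H3K4me1, the enhancer mark, in untreated p30-expressing cells was present at 43.3% (42.3 to 44.2) of the strictly gained and 28.6% (27.6 to 29.6) of the strictly lost regions, and at 60.5% of kept regions. With gained and lost regions compared within the same part of the 10 of their own list, the order held from part 4 to part 10, with 44.4% (42.8 to 46.1) of gained and 27.4% (25.9 to 29.1) of lost regions in part 5. In part 3 the intervals overlapped (46.4% and 44.5%), and in part 2 it was 42.8% of 138 gained and 65.2% of 23 lost regions. A peak of CEBPA binding, with either antibody, was found in 4.92% of strictly gained, 2.91% of strictly lost and 15.5% of kept regions. This share followed rank, going from 41.4% of kept regions in part 1 of the LPS list to 2.79% in part 10. In part 5 of the LPS list it was 5.99% of kept and 4.44% of gained regions, and in part 5 of the untreated list 5.93% of kept and 2.54% of lost regions. The median width was 825 bp for kept, 283 bp for strictly gained and 322 bp for strictly lost regions. A wider region overlaps a peak more easily, and the part of width in the H3K4me1 and CEBPA shares was not tested.

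Among kept regions, 5316 (5.87%) were higher and 4234 (4.68%) lower with LPS. Higher regions lay at promoters in 28.5% of cases (27.3 to 29.8) and lower regions in 4.79% (4.19 to 5.48). Both held CEBPA peaks more often than the kept regions between them, at 21.7% and 18.5% against 15.0%. They also ranked better, with a median best rank of 15.3% for higher and 25.8% for lower regions against 32.5% for those between, and higher regions were wider (1131 bp against 809 bp). The part of rank and width in the CEBPA shares was not tested.

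Single regions were ranked by their change among kept regions in the best 25% of either list. The largest rise stood at Traf1, an adaptor that binds TNF receptors and is an NF-kB target. The region chr2:34846717-34849474, at an inner start site of the gene, went from a fold of 2.23 in the untreated to 18.1 in the LPS list, a log2 change of 3.01. Its untreated peak was among the weakest of that list, at a rank of 97.5%. The second was 924 bp upstream of Nfkbiz, which encodes the nuclear IkB protein IkB-zeta. That region rose from 2.86 to 16.2, a log2 change of 2.49. The main promoter region of the same gene, beside it, was at 66.8 untreated and at 57.1 with LPS, a log2 change of -0.24. So 2 regions at the start of one gene differed in their change.

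The next 3 rises lay away from promoters. An intronic region of Arhgef3, an exchange factor of small GTPases, rose from 2.81 to 15.4, a log2 change of 2.44. The region nearest to Psmg1, a proteasome assembly chaperone, rose from 3.40 to 17.7, a log2 change of 2.37. A region downstream of Ets2, an ETS transcription factor, rose from 6.04 to 30.1, a log2 change of 2.31. These last 2 regions lay on chromosome 16 and each held the NF-kB match shown above. Each of these 5 regions overlapped an H3K4me1 peak in untreated p30-expressing cells. So did 67.3% of all higher kept regions and 76.9% of kept regions in part 1 of the LPS list.

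The regions of this paragraph were chosen after their values were seen. The region upstream of Lta, which encodes lymphotoxin and adjoins Tnf, rose from 6.62 to 26.5. A region nearest to Ripk2, the kinase of NOD receptors, rose from 2.18 to 10.4. The interferon-induced chaperone gene Rtp4 rose at its promoter from 2.72 to 9.33. A region downstream of Cd47, the "do not eat me" signal of blood cells, rose from 5.57 to 26.2. A gained region in an exon of Sod2, the mitochondrial superoxide dismutase, had an LPS fold of 10.7, and the gained region of Tnfrsf9, a costimulatory receptor also called 4-1BB, one of 9.69.

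**Figure D2:**
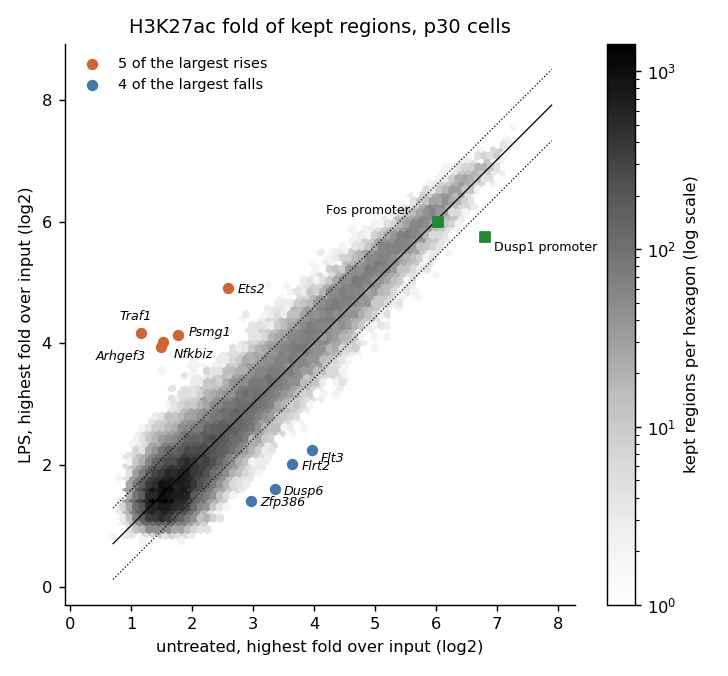
Highest fold enrichment over input of the 90552 kept regions, untreated (x axis, log2) against LPS (y axis, log2), with the number of regions per hexagon in grey on a log scale. The solid line is the median change and the dotted lines are 1.5-fold above and below it. The 5 largest rises and 4 of the largest falls among regions in the best 25% of either list are named by their nearest gene, and squares mark the promoters of Fos, on the line, and of Dusp1, below it.

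The largest falls lay away from promoters. The first stood nearest to Dusp6, an ERK phosphatase, at a distance of 180757 bp, and fell from 10.2 to 3.04, a log2 change of -1.76. An intronic region of Flt3, a receptor tyrosine kinase of early progenitors, fell from 15.6 to 4.78, a log2 change of -1.72. Further falls were far from Flrt2 (12.5 to 4.03), and in the immunoglobulin heavy chain locus (7.80 to 2.68), whose nearest protein-coding start was that of Zfp386. Chosen after its values were seen, the promoter of Crebrf, a regulator of CREB3, fell from 116 to 40.6, a log2 change of -1.53, from one of the highest folds of the untreated list.

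Gained and lost regions were ranked by q-value. The best-ranked gained region, 159 bp wide, was nearest to Gm3476 and had a fold of 18.7. It was followed by the promoter of Coq8a, a kinase of coenzyme Q synthesis (12.5), and by regions nearest to Dtwd1 (11.7), Poc1b (12.6) and Eci2 (12.05). The 5 best-ranked lost regions were nearest to Cmas (4.06), to Zfp386 in the heavy chain locus (4.09 and 7.61), to Potefam3f (6.04) and to Potefam3e (5.85). Gm3476 and the Potefam3 genes belong to families of near-identical copies, and the heavy chain locus holds many related variable segments, so the reads there are uncertain in their placement. In the heavy chain locus, chr12:113218450-115973713, 114 regions were kept, 6 gained and 69 lost.

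Genes were next described by lists of known function. Each region within 100 kb went to the nearest protein-coding start site. The 177 genes of 7 inflammatory lists (TLR4 signalling, NF-kB subunits and feedback, chemokines, cytokines, AP-1 factors, immediate early genes with MAPK phosphatases, and interferon-stimulated genes) had 738 gained and 290 lost regions. Over all 21584 protein-coding genes the numbers were nearly equal, 35880 and 36037. Under the strict rule the lists had 261 gained and 55 lost regions, against 9066 and 6895 over all genes. With the 50000 best peaks of each list they had 211 and 71, and with equal peak numbers 717 and 295. At least 1 gained region was nearest to 134 of the 177 genes (75.7%), against 45.2% of all genes. A strictly gained region was nearest to 90 (50.8%), against 22.9%, and a strictly lost region to 33, against 18.5% of all genes. The listed genes also had regions of any class more often, 162 of the 177 against 13917 of the 21584. They had 2256 regions, and all genes 156822. The part of this in the shares of genes was not tested.

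The kept regions of these lists were called higher in 157 of 1228 cases (12.8%) and lower in 35 (2.85%), against 5.82% and 4.52% of the kept regions of all genes. Regions of the chemokine genes were higher in 13 of 55 cases (23.6%) and lower in 1. Those of the cytokine genes were higher in 19 of 111 (17.1%) and of NF-kB subunits and feedback genes in 40 of 236 (16.9%). For interferon-stimulated genes the count was 27 of 174 (15.5%), for AP-1 factors 12 of 120, for TLR4 signalling 18 of 192 and for immediate early genes and MAPK phosphatases 28 of 340. The last list (8.24% higher) also had 17 lower regions (5.00%) and the AP-1 factors (10.0% higher) 7 (5.83%), shares nearer to those of all genes.

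Promoters were taken as the strongest region within 1000 bp of any start site of a gene. A promoter region was found for 11708 genes and kept for 11202. Of the kept ones 1329 (11.9%) were higher and 114 (1.02%) lower, while 383 promoters (1.77% of all genes) were gained and 123 (0.57%) lost. The size of this split changed with the scaling. The median change of kept promoters was 0.24 and that of kept distal regions -0.04. With quantile normalization the median of kept promoters was 0.077. Centred on their own median, an alternative added after the data were seen, 359 promoters were higher and 412 lower, a centring that by its construction brings both directions closer. With quantile normalization 642 were higher and 243 lower. Promoter values are therefore read against 0.24 below, and it is said where a call depends on it.

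On the scale of all kept regions, 39 of the 140 kept promoters of the 7 lists were higher and 1 was lower. Their median change was 0.33. Centred on the median of promoters, 19 (13.6%) were higher and 3 lower, against 359 of 11202 (3.20%) higher over all genes. The 3 lower ones were Dusp1 and, named after their values were seen, Tnip1 and Tsc22d3. Of the 177 genes of the 7 lists, 9 had a gained promoter and none a lost one. Over all genes, 1.77% of promoters were gained and 0.57% lost, so few losses would be seen in 177 genes.

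**Figure D3:**
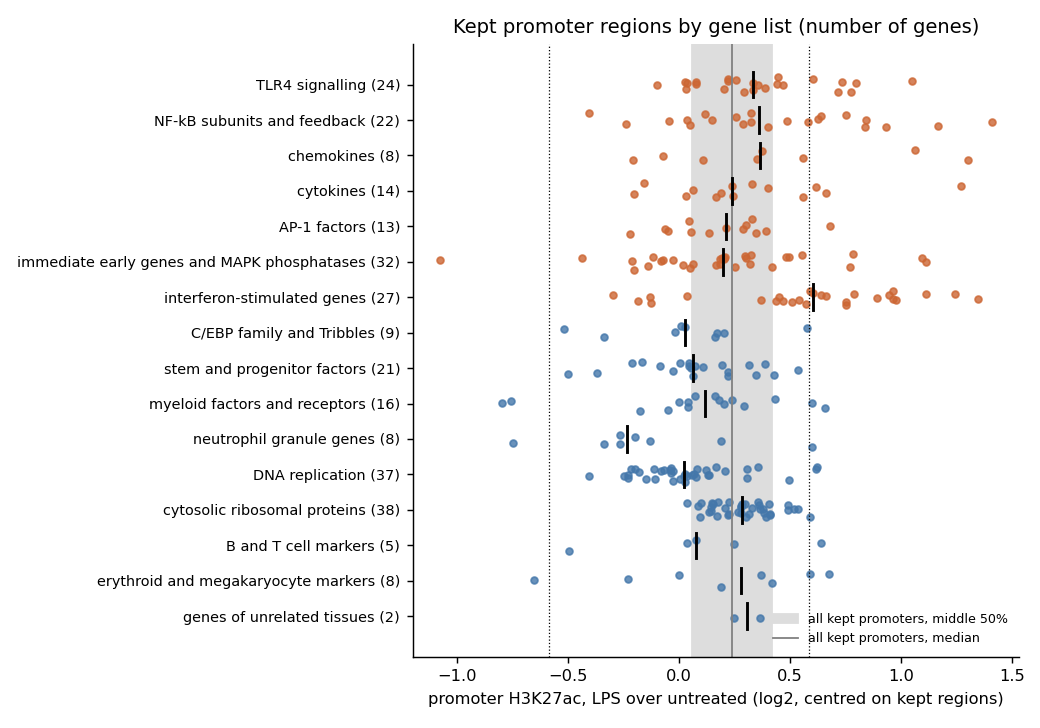
Change of H3K27ac at kept promoters (x axis, log2 of LPS over untreated, centred on all kept regions) for the genes of 16 lists, the 7 inflammatory lists in orange and the others in blue, with the number of kept promoters in brackets. Each point is a gene, black bars are list medians, the grey band and line give the middle 50% and the median (0.24) of all 11202 kept promoters, and dotted lines mark 1.5-fold. Interferon-stimulated genes have the highest median (0.60) and neutrophil granule genes the lowest (-0.23).

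NF-kB subunits and their feedback inhibitors had 8 of 22 promoters higher and none lower, where 11.9% of all kept promoters were higher. Relative to the promoter median 5 were higher and 1, Tnip1, was lower, where 3.20% of all were higher. Nfkbie, which encodes IkB-epsilon, rose most, from 10.6 to 28.3, a log2 change of 1.41. Traf1 rose at its main promoter from 12.5 to 28.2. Tnfaip3, which encodes the deubiquitinase A20, rose from 29.1 to 56.1, and Nfkb1, which encodes p105 and p50, from 47.6 to 85.8. Nfkbib, Relb, Socs1 and Tnip3 rose by log2 changes of 0.84, 0.75, 0.64 and 0.63. Relative to the promoter median, Relb, Socs1 and Tnip3 no longer passed 1.5-fold. Nfkbia, which encodes IkB-alpha and is among the earliest NF-kB targets, was at 26.4 untreated and 35.1 with LPS, a log2 change of 0.40 that passed on neither scale. Socs3, at 24.7 and 25.7, stayed below the promoter median.

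Of the 486 regions of this list 236 were kept, 203 gained and 47 lost. Over all genes it was 84905, 35880 and 36037 of 156822 regions. Strictly gained and strictly lost were 9066 and 6895 regions over all genes, and 71 and 9 in this list. Of these, 10 strictly gained regions lay nearest to Tnfaip3 and 8 nearest to Nfkbiz, with no strictly lost region at either gene, while 4 and 5 regions were lost without passing the strict rule. Upstream of Tnfaip3, a region at 28218 bp rose from 10.8 to 20.5 and a gained region at 79184 bp had a fold of 7.68. The gained intronic region of Nfkb1 shown above had a fold of 8.58. Downstream of Nfkbia, a region at 27083 bp rose from 4.59 to 10.2. A region 5874 bp upstream of Socs3 rose from 2.76 to 7.68, a log2 change of 1.47, while its promoter did not pass.

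**Figure D4:**
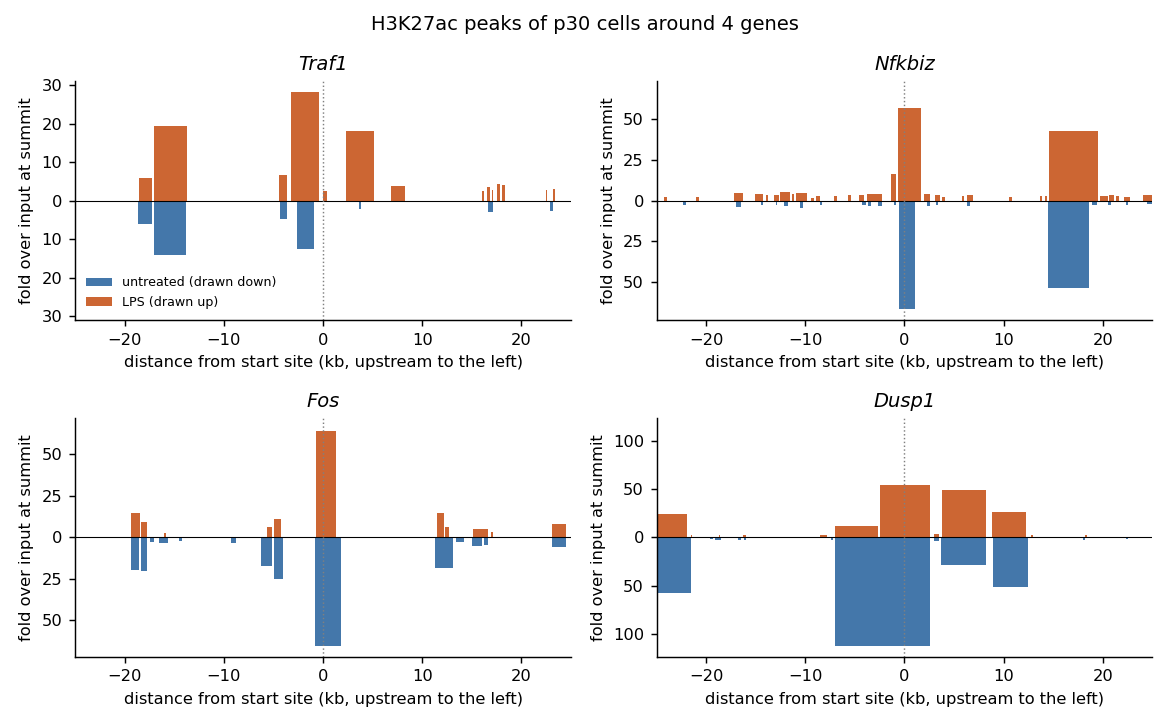
Peaks of H3K27ac within 25 kb of a start site of Traf1, Nfkbiz, Fos and Dusp1, drawn to scale along the x axis (kb from the start site nearest to the strongest promoter summit, upstream to the left). The height is the fold over input (y axis, linear), with the LPS list drawn up and the untreated list drawn down. The Traf1 region at the inner start site is 18.1 with LPS and 2.23 untreated, the Fos promoter is 64.0 with LPS and 65.6 untreated while the peaks 4642 and 5415 bp upstream are lower with LPS, and the Dusp1 promoter goes from 112 to 53.9.

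Chemokine genes had promoter regions in 9 of 20 cases. Cxcl2, a neutrophil attractant, rose from 3.81 to 9.45, a log2 change of 1.30, in the region whose NF-kB match is shown above. Ccl5, a T cell attractant that is also induced through interferon regulatory factors, rose from 8.80 to 18.5. The promoter of Ccl17 was gained with a fold of 5.08. Ccl3 was at 49.0 and 47.0, and Ccl4 at 13.8 and 17.8. A region 8673 bp downstream of Ccl3 fell from 61.8 to 40.4. The promoters of Cxcl10 and Ccl2 had no region. A region 4745 bp upstream of Cxcl10 rose from 4.33 to 8.27, and one 28522 bp upstream of Ccl2 rose from 11.4 to 17.7. No region of the list was strictly lost and 25 were strictly gained. Over all genes 9066 of 156822 regions were strictly gained and 6895 strictly lost, so few strict losses would be seen near 20 genes.

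Among cytokine genes, Il6 rose at its promoter from 6.30 to 15.3, a log2 change of 1.27. A distal region 77444 bp upstream of Il6 also rose, from 5.64 to 11.9. Promoters of Il1b, Il1rn, Il10, Vegfa and Hbegf were gained, all weakly, with LPS folds between 1.95 (Il10) and 4.49 (Hbegf). A region 2624 bp upstream of Il1b, the gene of interleukin-1 beta, rose from 7.88 to 15.3. Tgfb1 and Ebi3 rose from 43.8 to 69.9 and from 41.3 to 63.8, but not relative to the promoter median. Tnf, a prototype of the early response, was at 55.8 untreated and 50.5 with LPS. Its promoter region was also the strongest one of the neighbouring Lta.

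Interferon-stimulated genes had the highest median promoter change, 0.60. Of 27 kept promoters 15 were higher and none lower, and 8 were higher relative to the promoter median, against 11.9% and 3.20% of all kept promoters. Igtp and Gbp3, which encode GTPases of cell-autonomous defence, rose from 17.0 to 43.7 and from 7.48 to 17.8. Rigi, the RNA sensor RIG-I, rose from 10.2 to 22.2, and Isg15, a ubiquitin-like modifier, from 10.9 to 21.6. Stat2, a subunit of the interferon-activated factor, rose from 19.03 to 37.4. Isg20, Oas3 and Usp18 rose by log2 changes of 0.96, 0.95 and 0.89. Promoters of Ifit1, Ifit3 and Oasl2 were gained with folds of 4.61, 2.54 and 3.66. Irf1, an early transcription factor gene of this family, was at 49.5 and 40.6, a log2 change of -0.30. Psmb9 and Tap1 share 1 promoter region (29.5 to 50.0), which did not pass relative to the promoter median.

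In the TLR4 pathway itself, the receptor gene Tlr4 was at 19.4 and 18.3 and its coreceptor Cd14 at 12.6 and 15.6. Ly96, which encodes MD-2, rose from 43.0 to 65.9. The adaptor genes Myd88 and Ticam1, the latter encoding TRIF, rose from 29.5 to 51.0 and from 24.0 to 42.1. Ikbke, the kinase IKK-epsilon, rose from 28.01 to 58.4, a log2 change of 1.05. Traf3 and Acod1, which encodes the itaconate-forming enzyme of activated macrophages, rose by 0.74 and 0.72. Of these 6, only Ikbke passed relative to the promoter median.

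AP-1 factors had a median promoter change of 0.21, close to that of all kept promoters. Jun, a subunit of AP-1, rose from 24.7 to 40.0, a log2 change of 0.68, and not relative to the promoter median. Fos was at 65.6 and 64.0, Fosb at 71.4 and 61.7, Junb at 49.3 and 54.7, Fosl2 at 41.9 and 43.5, and Atf3 at 2.66 and 3.37. None of these other promoters passed. Upstream of Fos, the region 5415 bp upstream fell from 17.3 to 6.05, a log2 change of -1.53, and the one 4642 bp upstream from 25.2 to 10.7, a log2 change of -1.24. Another, 18004 bp upstream, fell from 20.6 to 8.96. The regions at 5415 and 4642 bp overlapped peaks of both CEBPA antibodies, and the one at 18004 bp of neither. Far downstream of Fos, regions at 49297, 50961 and 59280 bp rose, the last from 16.1 to 24.6. Batf, an AP-1 partner without an activation domain, had 13 strictly gained regions and no lost one, the most among members of the 7 lists, while its promoter was at 16.3 and 18.99.

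The immediate early genes were mixed. Gadd45b, a stress gene driven by NF-kB, rose from 7.69 to 16.8, and Btg2 from 8.14 to 17.5. Myc and Ier5 rose by 0.79 and 0.77, but not relative to the promoter median. Egr1 was at 60.4 and 69.7, Ier3 at 50.9 and 64.3, Gadd45a at 17.6 and 20.4, and Zfp36, which encodes the mRNA-destabilising protein tristetraprolin, at 129 and 112. Dusp1, the phosphatase that turns off p38 and JNK, was the lone lower promoter of the 7 lists on the main scale. It fell from 112 to 53.9, a log2 change of -1.07, on either scale and with quantile normalization. The promoter region of Dusp1 spans 9566 bp, with 1 untreated peak and 2 LPS peaks. Regions 23907 bp upstream and 10941 bp downstream of Dusp1 fell too, from 57.2 to 24.0 and from 51.5 to 26.3. A region between them, 5550 bp downstream, rose from 28.2 to 49.4.

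The comparison lists gave the background. Ribosomal protein genes had a median promoter change of 0.28, DNA replication genes 0.02, stem and progenitor factors 0.06 and C/EBP family genes with Tribbles 0.03. None of the 21 kept promoters of stem and progenitor factors was called on the main scale. Over all kept promoters 11.9% were higher and 1.02% lower, so few calls would be seen in 21. Kit was at 30.6 and 41.5, Gata2 at 36.5 and 31.8, and Runx1 at 34.0 and 24.3. Relative to the promoter median 2 of the 21 were lower, Runx1 (-0.74) and, named after its value was seen, Hhex (-0.61). Over all genes 412 of 11202 were lower on that scale. Cebpb was at 23.5 and 23.4 at its promoter, but 6 of its 17 kept regions were higher and 8 regions were strictly gained, with none lost. A kept region 65583 bp downstream of Cebpb rose from 31.4 to 52.8. Cebpd was at 26.2 and 39.5, just under the call.

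Myeloid and granule genes moved both ways. Spi1, which encodes PU.1, rose from 71.0 to 113, Csf3r from 29.0 to 44.3 and Mpo, myeloperoxidase, from 26.4 to 40.4, none of them relative to the promoter median. Fcgr3, an Fc receptor gene, fell from 76.4 to 44.4, and Gfi1, a repressor needed for neutrophils, from 14.4 to 8.62. Padi4, an arginine deiminase of neutrophils, fell from 3.41 to 2.05. Promoters of Camp and Lcn2, both antimicrobial granule genes, were gained with folds of 3.66 and 4.13, and that of Mmp9 was lost. Calls in the lists of other cell types were few. Lck, Klf1 and Pf4 were higher, but not relative to the promoter median, Gp9 was lower on both scales, and Cd79a and Cd4 were gained with folds of 3.31 and 2.60.

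Over all genes, the 10 with the largest surplus of strictly gained regions were Fut8, Foxn3, Adora2a, Fyb1, Batf, Cdkal1, Gatd3a, Itgb1, Pdcd1lg2 and Arhgap6. Adora2a, an adenosine receptor that restrains inflammation, had 16 strictly gained and 0 strictly lost regions, and its promoter rose from 21.9 to 45.1. Fyb1, an adaptor of immune cell adhesion, had 14 strictly gained and 0 strictly lost, with a promoter that rose from 20.7 to 45.5. Pdcd1lg2, which encodes the checkpoint ligand PD-L2, had 13 and 0, and 9 of its 18 kept regions were higher. Fut8, a fucosyltransferase with a long locus, had 24 strictly gained and 2 strictly lost. The 10 with the largest surplus of strictly lost regions were Hdac4, Cux1, Atxn2, Dip2b, Phf2, Clasp1, Cspp1, Ank3, Anks1 and Map3k4. Hdac4, a class II histone deacetylase, had 2 strictly gained and 19 strictly lost regions. Of its 44 kept regions none was higher and 10 were lower. The 7 lists hold 177 of the 21584 genes, so having no member among these last 10 says little about them.

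Sequence was then compared between the classes, in the 500 bp around the summit of distal regions on both strands. The NF-kB consensus stood in 5.51% (5.067 to 5.996) of strictly gained and 2.03% (1.73 to 2.39) of strictly lost regions, and in 3.18% of all distal regions. In kept regions it stood in 7.16% (6.38 to 8.02) of the higher, 3.08% of those between and 2.75% (2.29 to 3.31) of the lower. The same consensus written backwards, a control added after the data were seen, stood in 2.96%, 2.70%, 3.45%, 3.31% and 3.22% of these classes.

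The other consensus sequences were counted in the same way. TGANTCA (AP-1) stood in 20.0% (18.8 to 21.3) of higher and 14.4% (13.4 to 15.6) of lower kept regions, with 15.3% over all. The ISRE, the response element of interferon-stimulated genes, stood in 9.48% (8.58 to 10.4) and 6.57% (5.85 to 7.38), with 6.74% over all. TTGCNNAA (CEBP) stood in 18.98% of higher and 19.08% of lower regions, with 17.5% over all and 17.62% of kept regions between. GAGGAAGT (PU.1) stood in 9.08% and 6.72%, with 5.83% over all and 7.446% between. The shares over all include gained and lost regions, where PU.1 stood in 4.464% and 3.728%. In kept regions of the best 25% of either list, CEBP stood in 18.91% of higher, 18.94% of between and 20.67% of lower. For PU.1 these shares were 10.36%, 10.98% and 8.562%, so higher regions did not exceed those between. TGACGTCA, the cyclic AMP response element CRE, was rare, in 29 higher regions (0.763%, 0.532 to 1.09) and 8 lower ones (0.199%, 0.101 to 0.391), with 0.362% over all. The median GC content was 47.4% in higher and 48.2% in lower kept regions.

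Within kept regions of the best 25% of either list, the share with the NF-kB consensus climbed with the size of the change. It was 2.74% in regions that changed between -1 and -0.58 on the log2 scale and 3.31% around 0. It was 6.87% between 0.58 and 1, 12.4% (9.71 to 15.7) between 1 and 1.5, and 18.8% (11.1 to 30.0) above 1.5, where 12 of 64 regions held it. The backward control had 1 match among these 64. AP-1 went from 12.1% below -1 to 29.7% (19.9 to 41.8) above 1.5. The CEBP consensus lay between 17.2% and 22.9% in every step, with no order. These steps were also chosen after the data were seen.

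**Figure D5:**
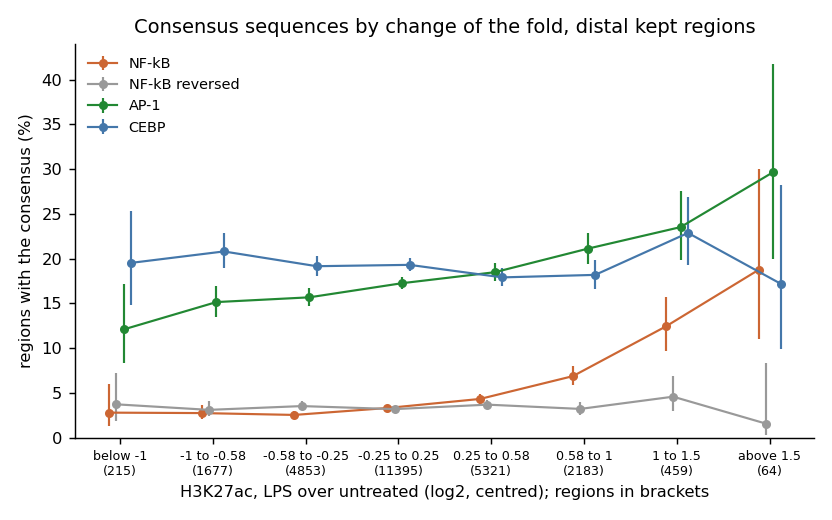
Share of distal kept regions in the best 25% of either list that hold a consensus sequence within 500 bp around the summit (y axis, percent, with 95% Wilson intervals), by the change of H3K27ac with LPS (x axis, steps of centred log2, with the number of regions in brackets). NF-kB goes from 2.79% in the lowest to 18.8% in the highest step and AP-1 from 12.1% to 29.7%, while the NF-kB consensus written backwards stays between 1.56% and 4.58%.

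The p42 lists came from other libraries and were not used to choose any region. Of the kept regions that rose in p30-expressing cells, 4415 had both p42 values. In p42-expressing cells 72.7% (71.4 to 74.0) of these lay above the p42 median change, and 21.0% were at least 1.5-fold higher, against 50% and 7.66% of all kept regions with both p42 values. Of the regions that fell in p30, 38.6% (36.8 to 40.4) lay above it. Among the 100 largest rises, 84 of 88 with p42 values lay above the p42 median, with a median of 0.94. Among the 100 largest falls, 14 of 80 did, with a median of -0.34. Across all 61292 regions with both changes the Spearman correlation was 0.18, a description over regions that are not independent of each other.

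At single genes the values of the p42 lists were as follows. The Cxcl2 promoter went from 5.31 to 11.1 in p42-expressing cells and the Il6 promoter from 10.2 to 19.8. The region nearest to Psmg1 went from 4.16 to 23.1. The Traf1 promoter, which rose in p30, was at 22.2 and 18.4 in p42, and the region at the inner start site of Traf1 was absent untreated and at 11.7 with LPS. The promoter of Nfkb1 was at 54.5 and 56.1, and that of Tnfaip3 had a centred log2 change of -0.10. The median p42 change of kept promoters with both p42 values was -0.09, so the Tnfaip3 value lay near it. By list this median was 0.50 for interferon-stimulated genes, 0.32 for chemokines and -0.09 for NF-kB subunits and feedback. For the 7 lists together it was -0.03. The upstream Fos regions, merged in p42, were at 49.1 and 29.4, and the Dusp1 promoter was at 116 and 86.5, a log2 change of -0.31 that did not pass. With 1 pooled list per group, no test of p30 against p42 could be made.

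Presence was compared too. Of the strictly gained regions 14.5% (13.8 to 15.2) were present in p42-expressing cells only with LPS, against 6.47% (5.93 to 7.05) of the strictly lost. Present only in untreated p42-expressing cells were 15.3% (14.6 to 16.1) of the strictly gained and 28.1% (27.1 to 29.2) of the strictly lost. Neither p42 list held 47.4% and 45.0% of them. The p42 LPS list is shorter, with 107114 peaks against 129345 in the untreated p42 list. Among kept regions, 4.51% were present in p42-expressing cells only with LPS and 14.3% only untreated. The only-LPS and only-untreated shares of a class therefore cannot be set against each other.

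On chromosome X, 465 regions were gained and 181 lost, a ratio of 2.57, while the ratio lay between 0.798 and 1.21 on the autosomes. Of the 1822 regions on X, 1176 were kept.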

How the data were processed

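H3K27ac ChIP-seq of p30-expressing HPC-7 cells, untreated and LPS-treated, was compared with 3 libraries pooled per list. According to the study's methods and the submitters' processing notes, the authors trimmed reads with Trim Galore 0.6.6, aligned them to mm39 (GRCm39) with Bowtie2, removed duplicates marked by Picard and called narrow peaks with MACS2 against input. The deposited lists give a fold enrichment over input (a ratio) at each summit and the −log10 of a q-value, with a largest q-value of 0.049. Calling against input and pooling mean that folds depend on the depth of each pool, which the lists do not give. Peaks on other sequences were left out. Of the authors' columns, fold and −log10 q were used to describe and rank peaks, and the −log10 of the p-value only to order peaks of equal q. The H3K4me1 list pooled several libraries and the CEBPA lists came from 1 library each.

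Genes, start sites and sequence came from GENCODE M39 and GRCm39. Promoters were within 1000 bp of a protein-coding start site, and regions went to the nearest start within 100 kb. Ranks ran by q-value. Sample labels defined the groups. The regions and the 16 gene lists (384 of 385 genes matched by symbol) were chosen with earlier results of these data known. Named genes were list members with a gained, lost or called promoter or the 4 largest changes of a list, a set of 32 standard response genes, the 10 genes with most and fewest strictly gained less lost regions, and the 5 regions at each end of the ranks and changes. Genes outside this rule are said to be. Some items that the rule selects are not reported here. Alternatives were equal peak numbers, the 50000 best peaks, stricter q-values, wider merging, reciprocal overlap, other scalings, fold limits, windows and distances. The steps were tested on simulated data. Computations ran in Python 3.11.15 (pandas 2.3.3, scipy 1.17.1, numpy 2.4.6), and plots were drawn with matplotlib 3.10.9.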

Additional observations from a re-analysis of the deposited data

Results flagged for a closer look

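Outside the chromosomes compared, the LPS list held 92 peaks on sequences such as unplaced contigs and Y, where the untreated list held 74. They were noticed because no comparison above uses them. The highest fold among them was 38.5 with LPS and 27.7 untreated. These sequences hold repeats whose reads are uncertain in their placement, and no peak there was assigned to a gene.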

How the results depend on the processing

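Of 65 alternative values, 26 stayed within the limits set for them and 39 moved. No result that compares 2 lists reversed in any of these alternatives, except the order of gained and lost counts with equal peak numbers, with the 50000 best peaks and with merging within 500 bp, and that of higher and lower promoters centred on their own median. With the 50000 best peaks of each list, 38429 regions were kept, 8476 gained and 8562 lost. With a q-value under 1e-05 in both lists the numbers were 55575, 19924 and 17354. With the strict rule 9891 were gained and 7393 lost. With peaks within 500 bp merged 19631 were gained and 21982 lost, and with a reciprocal overlap of 50%, counted in peaks, 75310 and 72115. Among gained regions, the strict rule moved the share at promoters from 4.98% to 6.29%, the share with H3K4me1 from 34.9% to 43.3% and the share in p42 H3K27ac lists from 39.8% to 52.6%, while equal peak numbers moved the last to 40.4%. Promoters within 2500 bp gave 12.7%, and H3K4me1 peaks with a q-value under 1e-05 gave 23.6%. A strictly gained region was nearest to 4937 genes, against 9765 with any gained region. At 2-fold, 693 kept regions were higher and 291 lower, and 137 promoters higher and 7 lower. Quantile normalization gave 642 higher and 243 lower promoters, and centring on promoters 359 and 412. Among regions with a q-value under 1e-05 in both lists, 1925 were lower. The NF-kB consensus in gained regions moved from 4.00% to 1.61% in 200 bp, 6.71% in 1000 bp and 5.51% under the strict rule. In lost regions it moved from 2.21% to 0.965%, 4.13% and 2.03%. AP-1 in gained regions moved from 15.5% to 6.01%, 28.1% and 16.2%, and in lost regions from 13.7% to 5.35% and 25.9%. Shorter windows hold fewer matches by construction. For the other moves the cause was not tested.

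No paired analysis was possible because each list was called on its replicates pooled and carries no replicate number. For the same reason no replicate was left out in turn. The depth of the pools limits which weak regions are called, and gained and lost regions are mostly weak.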
